A study of Homo sapiens with 18 samples.

Results

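The zinc finger genes named ZNF were followed in SK-N-MC cells kept for 1 or 4 weeks in low doses of rotenone, a plant-derived pesticide and inhibitor of mitochondrial complex I. A probe set belonged to the group where the platform annotation gave it a single gene symbol made of ZNF and a number and where its signal reached 100 on at least 3 of the 18 arrays. This held for 167 probe sets of 140 genes, out of 304 ZNF probe sets of 235 genes and out of 22283 probe sets on the array. Of these, 58 probe sets (54 genes) lie on chromosome 19 and 109 probe sets (86 genes) on other chromosomes. The members were therefore chosen on their own measured signals. The groups of 3 arrays were 1w5 nM and 1w50 nM, against the ethanol vehicle of the same week (1w0 nM), and 4w5 nM and 4w50 nM, against the vehicle 4w0 nM. All groups were of 1 human cell line in medium without added pyruvate, and the labels describe 5 nM as sublethal and 50 nM as slightly toxic. There were 3 experiments, and in each the cells of 5 dishes per condition were pooled into 1 sample. The labels do not say which array came from which experiment, and p-values here cover only the spread among these arrays.

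A ZNF protein binds nucleic acid through zinc fingers, short folds held together by a zinc ion, of which most members carry several in a row. Many also carry a KRAB domain, which recruits the corepressor TRIM28 (KAP1) and through it the histone methyltransferase SETDB1, and a large share of these proteins bind and silence transposable elements. Chromosome 19 holds clusters of KRAB zinc finger genes that arose by tandem duplication, so that neighbours there are close copies of each other. In such families 1 probe set can read the RNA of several genes. Among the members, 51 probe sets had an identifier ending in s_at, 19 in x_at and 1 in f_at, which mark probes shared with other transcripts, and their values are uncertain as measures of a single gene. On chromosome 19 this held for 17 s_at and 10 x_at probe sets.

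A short motif, the ETS core, stood in 41.1% of the members' promoters. RefSeq promoters (GRCh38.p14, 250 bases before to 50 after the start) were matched for 124 of the 140 genes. The core, CCGGAAG on either strand, is the recognition core of the ETS family of transcription factors. It stood in 51 of the 124, against 18.1% of the 7482 promoters of all genes tested and 10.7% of all 27305 promoters. Among the members of chromosome 19 it stood in 27 of 51 promoters (52.9%), against 75 of 455 promoters (16.5%) of the other genes of that chromosome. On the remaining chromosomes 24 of 73 ZNF promoters held it (32.9%). Where present, the core lay within 100 bases before the start or after it in 47 of 51 ZNF promoters (92.2%), against 74.6% over all genes tested. The GC box (GGGCGG, which can share its G letters with an adjoining core) stood in 63.7% of ZNF promoters and in 68.1% of those of all genes tested, and CCAAT in 45.2% and 37.4%. The TATA box (TATAAA) stood in 3.23% of ZNF promoters and in 6.56% of those of all genes tested. A match is a description of these letters, neither a binding site nor a cause. It stood in 18 of the 52 matched genes with a probe set higher in 4w50 nM than in 4w0 nM (34.6%) and in 6 of the 9 with one lower (66.7%), and these shares were not tested against each other. The promoters below are those of 3 genes that rose on other chromosomes and of 3 that fell or rose on chromosome 19, picked after their values were seen. ZNF141 is at chr4:337564-337863 (plus strand), ZNF184 at chr6:27473056-27473355 (minus strand), ZNF277 at chr7:112206445-112206744 (plus strand), ZNF43 at chr19:21836133-21836432 (minus strand), ZNF813 at chr19:53467483-53467782 (plus strand) and ZNF83 at chr19:52690447-52690746 (minus strand). Capitals mark the ETS core, written as CTTCCGG where it lies on the opposite strand.
ZNF141: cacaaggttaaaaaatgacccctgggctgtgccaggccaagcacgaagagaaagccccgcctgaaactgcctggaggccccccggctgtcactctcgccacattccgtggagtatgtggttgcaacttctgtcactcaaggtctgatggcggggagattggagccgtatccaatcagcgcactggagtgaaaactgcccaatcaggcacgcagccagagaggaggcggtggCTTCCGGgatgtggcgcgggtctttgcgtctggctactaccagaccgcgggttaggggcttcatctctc
ZNF184: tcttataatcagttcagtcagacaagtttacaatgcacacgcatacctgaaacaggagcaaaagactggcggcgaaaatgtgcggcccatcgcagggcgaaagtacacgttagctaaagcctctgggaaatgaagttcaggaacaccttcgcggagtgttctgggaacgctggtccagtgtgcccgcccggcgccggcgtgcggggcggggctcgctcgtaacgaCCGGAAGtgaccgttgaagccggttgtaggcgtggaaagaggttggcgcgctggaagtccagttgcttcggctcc
ZNF277: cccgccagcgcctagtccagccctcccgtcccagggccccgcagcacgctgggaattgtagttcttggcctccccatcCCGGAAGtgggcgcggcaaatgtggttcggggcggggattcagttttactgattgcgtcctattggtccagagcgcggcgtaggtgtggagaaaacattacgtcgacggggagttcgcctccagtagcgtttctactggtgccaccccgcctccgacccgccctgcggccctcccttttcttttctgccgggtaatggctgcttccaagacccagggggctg
ZNF43: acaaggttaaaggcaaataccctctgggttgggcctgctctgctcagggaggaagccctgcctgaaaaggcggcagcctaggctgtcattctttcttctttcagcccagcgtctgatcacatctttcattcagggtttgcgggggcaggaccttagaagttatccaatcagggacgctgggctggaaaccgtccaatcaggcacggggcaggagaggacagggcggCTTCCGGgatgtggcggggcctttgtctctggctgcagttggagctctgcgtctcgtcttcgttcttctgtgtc
ZNF813: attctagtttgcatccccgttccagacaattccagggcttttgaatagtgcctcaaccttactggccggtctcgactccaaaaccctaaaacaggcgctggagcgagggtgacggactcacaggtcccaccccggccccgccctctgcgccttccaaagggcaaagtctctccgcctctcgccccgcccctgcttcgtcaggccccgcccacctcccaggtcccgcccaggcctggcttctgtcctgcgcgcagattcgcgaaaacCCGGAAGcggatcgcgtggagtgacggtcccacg
ZNF83: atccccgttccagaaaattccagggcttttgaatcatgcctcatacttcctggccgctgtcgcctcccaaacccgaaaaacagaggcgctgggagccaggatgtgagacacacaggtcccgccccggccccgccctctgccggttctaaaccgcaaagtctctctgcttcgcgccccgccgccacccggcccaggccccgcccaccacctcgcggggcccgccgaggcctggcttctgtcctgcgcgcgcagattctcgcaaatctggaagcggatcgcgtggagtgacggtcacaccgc
The core lay 19 bases before the start in ZNF141, 25 before in ZNF184, 24 before in ZNF43 and 172 before in ZNF277, and 16 bases after the start in ZNF813. None was found in the window of ZNF83. ZNF141 and ZNF43 shared an unbroken run of 18 bases that holds the core, ggcttccgggatgtggcg. ZNF813 and ZNF83 shared a run of 27 bases, ggaagcggatcgcgtggagtgacggtc, which takes in the last letters of the core of ZNF813.

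Signals were deposited as linear model-based expression indexes (MBEI) from dCHIP, with array medians between 87.0 and 102. The limma fit covered 13705 probe sets, and a probe set is said to rise or fall at an adjusted p below 0.05. SK-N-MC is given as a neuroepithelioma line in the labels and as a neuroblastoma line in the study. The Ewing tumour markers CD99, NKX2-2, FLI1 and STEAP1 reached 100 on all 18 arrays, and of the 6 sympathetic markers on the array PHOX2A, HAND2, DBH and TH did so on none, GATA3 on all 18 and MYCN on 12. Within 1w0 nM the lowest correlation of a pair of arrays was 0.908, with replicate 3 standing apart, against at least 0.965 in the other groups. The 18 hybridization control probe sets, spiked into every sample, stood on the 6 arrays of 4w5 nM and 4w50 nM at 0.496 times their level on the remaining 12. Their part in the results at 4 weeks was not tested. In RNA of whole cultures, fewer cells that express a gene and less RNA per cell cannot be told apart.

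Of the 167 members, 85 reached 100 on all 18 arrays, 137 on at least 9 and 30 on 3 to 8, and for 2 the arrays at 100 all lay in 1 group. Just inside the limit the third highest signal was 102 for ZNF443, 104 for ZNF180 and 105 for ZNF507. Just outside it was 98.8 for ZNF117, 98.9 for ZNF394 and 99.1 for ZNF668. The strongest signals over background came from ZNF207 (BuGZ, a kinetochore protein), with a mean of 1833 over the 18 arrays, from ZNF146, a protein made of zinc fingers alone, with 1333, and from ZNF706, with 1308. ZNF638 (NP220), which silences unintegrated retroviral DNA, ZNF292, a large factor mutated in neurodevelopmental disorders, and ZNF395 had means of 974, 755 and 756. An RNA antisense to ZNF217 (ZNF217-AS1) and a pseudogene (ZNF271P) also fitted the rule.

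After 1 week with 5 nM few members moved, with rises on chromosome 19 and falls elsewhere. In 1w5 nM against 1w0 nM, 7 members were higher and 8 lower (4.19% and 4.79%), beside 4.79% higher and 1.88% lower of all probe sets tested. All 7 that rose are on chromosome 19 (12.1% of its 58 members) and all 8 that fell are on other chromosomes (7.34% of 109). Among members whose identifier ends in at alone, 2 of 30 on chromosome 19 rose (6.67%) and 5 of 66 elsewhere fell (7.58%). At an unadjusted p below 0.05 in limma there were 14 on chromosome 19 and 22 elsewhere, in either direction. The share of all probe sets tested at that threshold is not given here, so these counts do not show more change among members. The largest rise was in ZNF611 (208137_x_at), a KRAB zinc finger gene of chromosome 19. It read 197, 140.1 and 157 on the 1w5 nM arrays, against 64.1, 87.3 and 91.5 on the 1w0 nM arrays, and the 2 groups did not overlap (log2 fold change 1.03 ± 0.19 SE, adjusted p = 0.00414). ZNF443 (205928_at) read 102, 97.7 and 101 on the 1w5 nM arrays, against 56.1, 49.6 and 57.5 on the 1w0 nM arrays, again without overlap (0.88, adjusted p = 0.00283). ZNF160 (0.79) and ZNF587 (0.66) also rose, both read by x_at probe sets, but these calls were lost under 6 and 14 alternatives. The largest falls were in ZNF24, a SCAN domain repressor (-0.75), in ZNF330, a nucleolar autoantigen (-0.75 and -0.59 in its 2 probe sets), and in ZNF322 (-0.70). The value of ZNF24 is that of 203248_at, and its 3 probe sets ranged up to 0.06. The calls of ZNF322, ZNF24 (203248_at) and ZNF330 (213760_s_at) were lost under 13, 6 and 3 alternatives. With 4w0 nM as vehicle for both weeks, an alternative chosen after seeing the data, no member passed in either direction in limma. Leaving out single arrays moved the counts to between 2 and 8 higher and between 1 and 16 lower, with the smallest in both directions without 1w5 nM replicate 2 and the 16, of which 2 were on chromosome 19, without 1w0 nM replicate 3. The count higher was also 3 to 4 without 1w0 nM replicate 1, 1w5 nM replicate 1 or 3 or 4w0 nM replicate 2, and the count lower 4 to 5 without replicate 1 or 2 of 1w0 nM or replicate 1 of 1w5 nM.

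**Figure D1:**
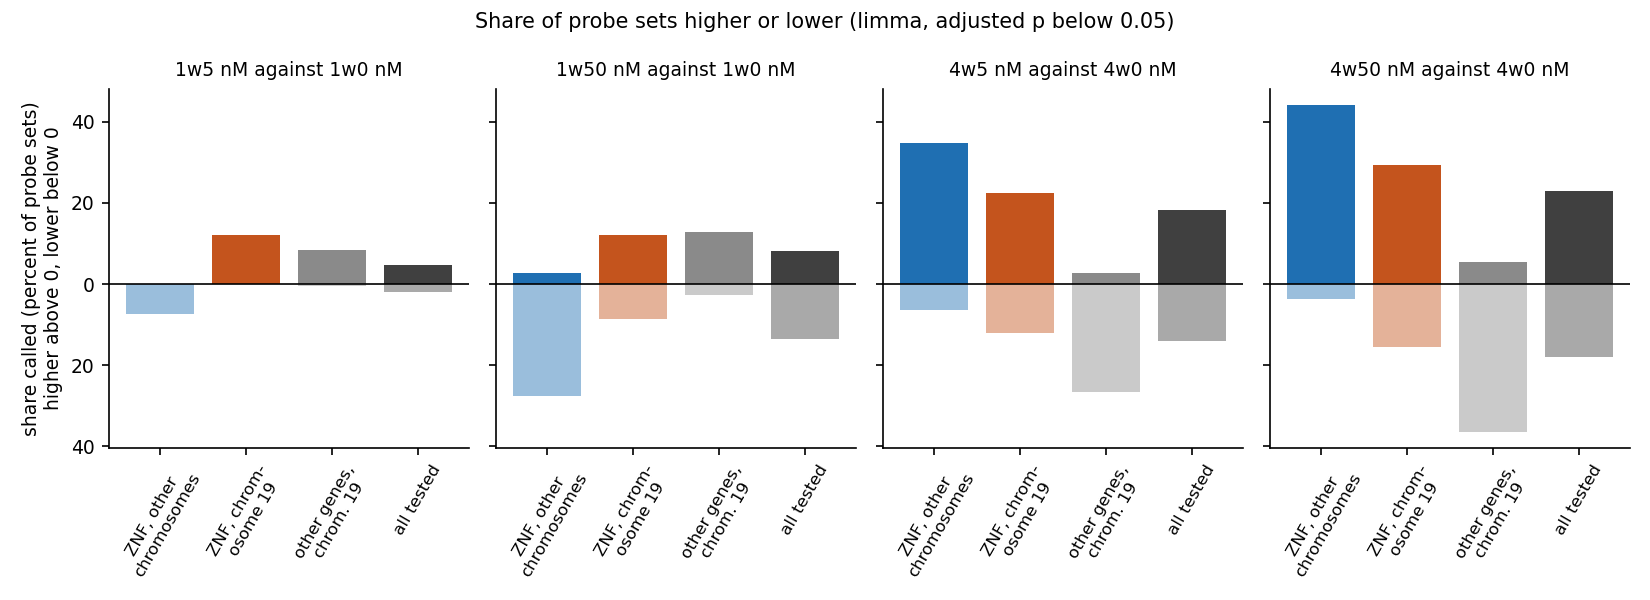
Share of probe sets higher (above 0) and lower (below 0) at an adjusted p below 0.05, in percent, for ZNF members of other chromosomes, ZNF members of chromosome 19, the other genes of chromosome 19 and all probe sets tested, in 4 comparisons of a dose with the vehicle of its week. At 4w50 nM 44.0% of the ZNF members of other chromosomes were higher, against 22.9% of all probe sets tested and 5.40% of the other genes of chromosome 19.

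With 50 nM at 1 week more members of other chromosomes fell than rose. In 1w50 nM against 1w0 nM, 10 members were higher and 35 lower (5.99% and 21.0%), beside 8.23% and 13.6% of all probe sets tested. Off chromosome 19, 3 were higher and 30 lower (2.75% and 27.5%), with a median log2 fold change of -0.22 against -0.01 over all probe sets tested. On chromosome 19, 7 were higher and 5 lower (12.1% and 8.62%), with a median of 0.01, and without the shared-probe identifiers 1 of 30 was higher (3.33%) and 4 lower (13.3%). The other genes of chromosome 19 had 103 of 797 higher and 21 lower (12.9% and 2.63%). Among the 10942 tested probe sets that met the same signal limit as the members, 916 were higher (8.37%) and 1753 lower.

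The largest fall was in ZNF322 (219376_at, chromosome 6). Its signal was 46.0, 37.6 and 56.8 on the 1w50 nM arrays, against 131, 152 and 93.8 on the 1w0 nM arrays, with every 1w50 nM array below every vehicle array (-1.42 ± 0.19, adjusted p = 0.000186). ZNF24 (203248_at, chromosome 18) read 88.1, 77.0 and 122 on the 1w50 nM arrays, against 249, 256 and 175 on the 1w0 nM arrays (-1.25, adjusted p = 0.000398). ZNF711 (207781_s_at, X chromosome), a gene of X-linked intellectual disability whose protein works with the demethylase PHF8, read 91.0, 99.6 and 114 on the 1w50 nM arrays, against 238, 250.2 and 210.2 on the 1w0 nM arrays (-1.20, adjusted p = 0.000201). In these probe sets of both genes the 2 groups of arrays stood apart. The other probe sets of ZNF24 gave -0.57 (212534_at, called) and -0.29 (203247_s_at, not called). ZNF141 (206931_at, chromosome 4), a KRAB zinc finger gene, was near the lower end of the scale, with 29.8, 19.5 and 21.3 on the 1w50 nM arrays, against 42.8, 62.5 and 53.5 on the 1w0 nM arrays (-1.18 ± 0.23, adjusted p = 0.00196). All 5 probe sets (4 genes) of chromosome 10 fell (median -0.86), as did 5 of 9 (6 genes) on chromosome 6 and 3 of 4 (3 genes) on chromosome 4. Of all probe sets tested 13.6% fell.

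ZNF22 (KROX26, 218005_at, chromosome 10), known for its expression in developing teeth, fell most evenly. It read 383, 417 and 464 on the 1w50 nM arrays, against 785, 793 and 763 on the 1w0 nM arrays (-0.90 ± 0.11, adjusted p = 7.72e-05). Its second probe set gave -0.87. ZNF330 (209814_at, chromosome 4) read 296, 369.9 and 402 on the 1w50 nM arrays, against 627, 645 and 728 on the 1w0 nM arrays (-0.92 ± 0.13, adjusted p = 0.000301), and its second probe set gave -1.17. On chromosome 19 the largest falls were in ZNF45 (-0.88), ZNF614 (-0.86) and ZNF473 (-0.85, adjusted p = 0.00172), whose protein ZFP100 takes part in histone mRNA processing. The second probe set of ZNF473 gave -0.22 and was not called. ZNF611 (0.95), ZNF587 (0.76), ZNF443 (0.55) and ZNF419 (0.47) rose on chromosome 19, and on other chromosomes ZNF629 (0.78), ZNF217-AS1 (0.61) and ZNF335 (0.48). The calls of ZNF419 and ZNF335 were lost under 6 alternatives each, those of ZNF443 and ZNF217-AS1 under 4 and that of ZNF587 under 2.

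The falls at 1 week depended on the vehicle arrays. With the 4w0 nM arrays as vehicle, 9 members were lower with 50 nM and none was higher. The share of all probe sets tested with that vehicle is not given here. Of the falls named here, those in ZNF322 (-0.98), ZNF711 (-0.83), ZNF24 (-0.79) and ZNF45 (-0.71) were still called. The vehicle groups differed too: in 4w0 nM against 1w0 nM, 2 members were higher and 4 lower (1.2% and 2.4%), beside 2.66% and 0.606% of all probe sets tested. All 4 that were lower are off chromosome 19 (3.67% of 109). Of the members that differed, ZNF443 was higher (0.81, adjusted p = 0.00646) and ZNF22 lower (-0.59, adjusted p = 0.00487) in 4w0 nM. Without 1w0 nM replicate 3, 16 members were higher and 54 lower in 1w50 nM against 1w0 nM, with 12 of the falls on chromosome 19, and 14 were lower in 4w0 nM against 1w0 nM. Without 1w50 nM replicate 1 the count lower was 22 (18 off chromosome 19), and the count higher was 4 to 5 without replicate 1 or 2 of either group. The counts between vehicles were 1 to 3 higher and 1 to 14 lower when single arrays were left out. Between the doses, 1w50 nM against 1w5 nM, no member passed in limma in either direction, beside 0% and 0.0073% of all probe sets tested. An unadjusted p below 0.05 was met by 35 members, given without the share of all probe sets tested at that threshold. Without 1w0 nM replicate 3, 13 members were lower. The methods' t-test after Benjamini-Hochberg adjustment also called no member, whereas array weights in limma gave 2 higher and 51 lower.

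**Figure D2:**
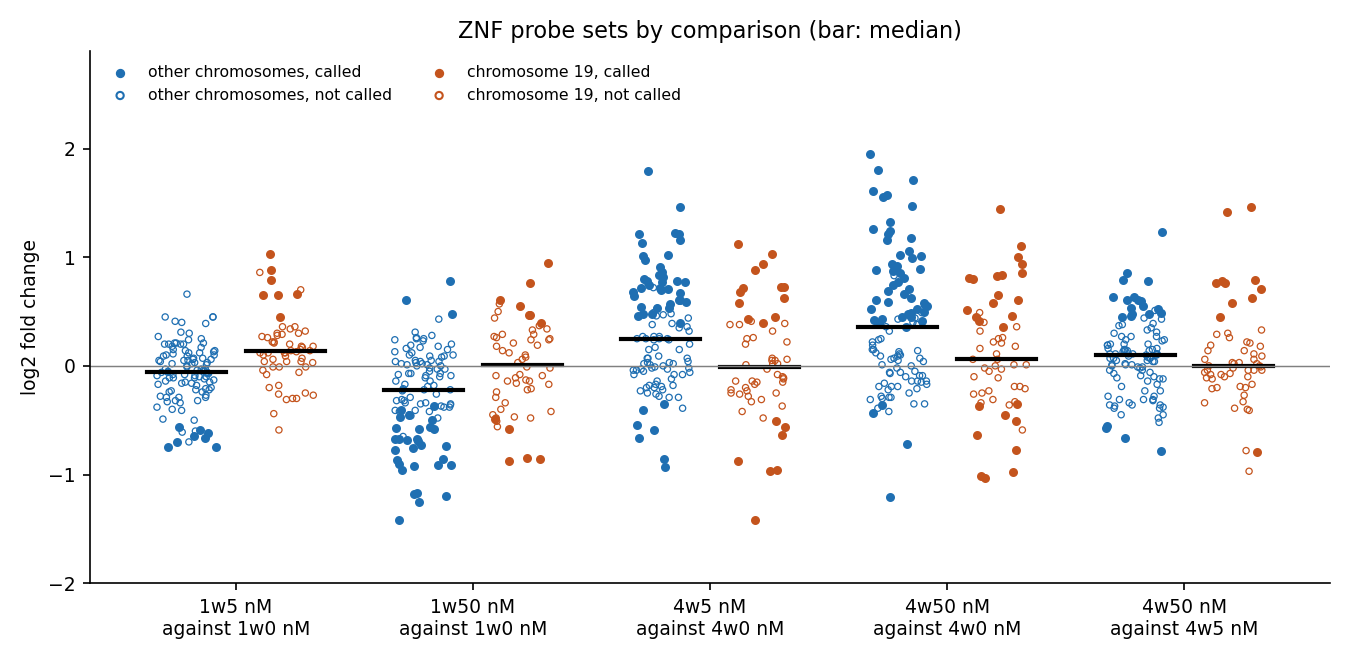
Log2 fold change (y axis) of each of the 167 ZNF probe sets in 5 comparisons (x axis), for other chromosomes (blue) and chromosome 19 (orange). Filled points were called at an adjusted p below 0.05 and bars are medians, which for other chromosomes stood at -0.22 in 1w50 nM and at 0.36 in 4w50 nM, each against the vehicle of its week.

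After 4 weeks more ZNF genes of other chromosomes were higher than lower with both doses. In 4w5 nM against 4w0 nM, 51 members were higher and 14 lower (30.5% and 8.38%), beside 18.3% and 14.1% of all probe sets tested. In 4w50 nM against 4w0 nM, 65 were higher and 13 lower (38.9% and 7.78%), beside 22.9% and 18.1%. Off chromosome 19, 38 were higher and 7 lower with 5 nM (34.9% and 6.42%) and 48 were higher and 4 lower with 50 nM (44.0% and 3.67%). The medians there were 0.25 with 5 nM and 0.36 with 50 nM, against 0.03 and 0.01 over all probe sets tested. With 50 nM, 19 members rose and 3 fell at least 2-fold, of which 16 rises and 1 fall were off chromosome 19. The share of all probe sets tested at that fold is not given here. These rises included ZNF141, ZNF267, ZNF518A, ZNF217 and ZNF529, whose arrays at 100 were all 4w5 nM or 4w50 nM arrays. The 10942 probe sets that met the members' signal limit had 26.0% higher and 19.5% lower with 50 nM. For 10 members every array at 100 was a 4w5 nM or 4w50 nM array, so that the rule itself favoured a rise, and all 10 were higher with 50 nM. Without them 33 of 102 were higher with 5 nM off chromosome 19 (32.4%) and 41 with 50 nM (40.2%), and 13 and 14 of 55 on chromosome 19. Of the 54 tested probe sets of other zinc finger families (ZFP, ZKSCAN, ZSCAN and ZBTB), 16 were higher and 7 lower.

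ZNF141 (206931_at), one of the 10, had the largest ratio, given here with no test. It read 171, 143 and 95.2 on the 4w50 nM arrays, against 40.6, 35.3 and 28.3 on the 4w0 nM arrays, so that the lowest treated array was above the highest vehicle array (3.86-fold, log2 1.95). On the 4w5 nM arrays it read 135, 124 and 101 (3.46-fold). ZNF277 (218645_at, chromosome 7), whose protein binds the ribosomal protein RPS2, read 374, 356 and 200.2 on the 4w50 nM arrays, against 93.0, 83.7 and 81.7 on the 4w0 nM arrays (3.47-fold, 1.80 ± 0.22, adjusted p = 1.22e-05). Replicate 3 of 4w50 nM was the lowest of its group for both genes and still stood above every vehicle array. ZNF184 (213452_at, chromosome 6), a KRAB gene, read 320.1, 315 and 288 on the 4w50 nM arrays, against 74.8, 97.5 and 113 on the 4w0 nM arrays (3.28-fold, 1.71 ± 0.20, adjusted p = 9.92e-06), and 255, 256 and 155 on the 4w5 nM arrays (log2 1.21). ZNF467 (214746_s_at, chromosome 7), whose mouse counterpart favours fat over bone cells, read 626, 561 and 256 on the 4w50 nM arrays, against 145, 141 and 154 on the 4w0 nM arrays (1.61 ± 0.31, adjusted p = 0.00063).

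**Figure D3:**
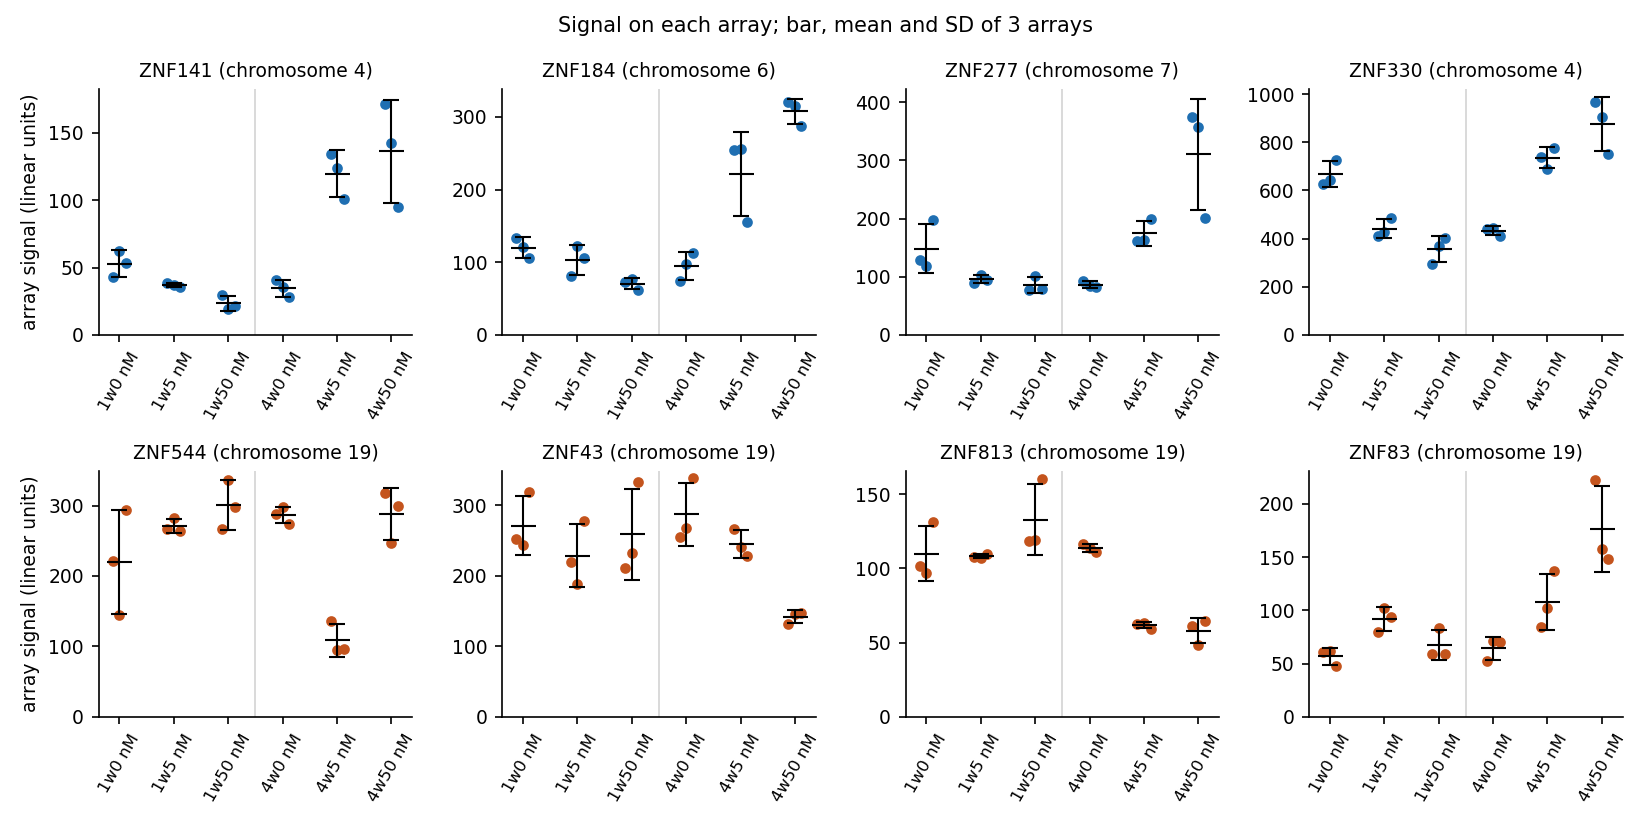
Array signal (linear units, y axis from 0) of 8 ZNF probe sets on each of the 18 arrays, by group along the x axis, with the mean and SD of 3 arrays. In the upper row (other chromosomes) the 4w5 nM and 4w50 nM arrays of all 4 genes lie above the 4w0 nM arrays, and in the lower row (chromosome 19) ZNF544, ZNF43 and ZNF813 fell in 1 or both doses and ZNF83 rose.

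Of the 33 probe sets (23 genes) of members with a well-described function, 16 were higher and 1 lower in 4w5 nM (48.5% and 3.03%, beside 30.5% and 8.38% of all members and 18.3% and 14.1% of all probe sets tested). In 4w50 nM 20 were higher and 1 lower (60.6% and 3.03%, beside 38.9% and 7.78% of all members), and in 1w50 nM 1 was higher and 13 lower (3.03% and 39.4%, beside 5.99% and 21.0%). The list was chosen with earlier results of these data known. Its shares are therefore a description and cannot show that well-described genes responded more. ZNF423, a cofactor of retinoic acid receptors and SMAD proteins, read 578, 413 and 435 on the 4w50 nM arrays, against 207, 183 and 177 on the 4w0 nM arrays (1.32, adjusted p = 1.54e-05), and 459, 379.9 and 399 on the 4w5 nM arrays. ZNF217, an oncogene amplified in breast cancer, read 248, 147 and 183 on the 4w50 nM arrays, against 95.1, 85.3 and 62.4 on the 4w0 nM arrays (1.24), and it too is one of the 10 probe sets admitted by their 4-week rotenone arrays. The treated and vehicle arrays of both genes were apart. The antisense RNA at the same locus, ZNF217-AS1 (215861_at), went the other way, with 52.0, 44.0 and 58.3 on the 4w50 nM arrays, against 77.8, 87.7 and 87.9 on the 4w0 nM arrays (-0.72, adjusted p = 0.0057). ZNF638 rose by 0.84 with 5 nM and 0.88 with 50 nM. ZNF143, an activator of small nuclear RNA and many other promoters, rose by 0.78 and 0.85. ZNF292 had 0.57 and 1.18 in 212366_at, both called, and 0.03, not called, and 0.55 in its brighter probe set 212368_at. ZNF202, which represses genes of lipid metabolism, rose by 1.21 and 0.69. Its second probe set gave 0.71 with 5 nM, called, and 0.40 with 50 nM, not called. ZNF451, a SUMO ligase, rose by 1.21 with 50 nM and ZNF274, which binds other ZNF genes and recruits SETDB1, by 0.45 (adjusted p = 0.0112), while with 5 nM their values of 0.35 and 0.01 did not pass. The second probe set of ZNF451 (215012_at) gave 0.62 with 50 nM, called, and 0.02 with 5 nM, not called. The 1 fall was in ZNF384 (-0.35 and -0.36). ZNF148, ZNF207, ZNF268, ZNF281, ZNF335, ZNF395 and ZNF593 did not pass with 50 nM.

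Early falls and late rises with 50 nM met in 27 ZNF probe sets. The effect of 50 nM at 4 weeks minus that at 1 week was higher for 65 members and lower for 17, beside 25.6% and 19.7% of all probe sets tested. For 5 nM it was higher for 40 and lower for 16, beside 15.4% and 16.8%. Of the 65, 7 had met the signal limit through 4-week rotenone arrays alone, and of the 40, 3, so that the rule favoured them. Without such members 58 of 157 were higher with 50 nM (36.9%) and 37 with 5 nM (23.6%). These 27, of 24 genes, were lower at 1 week, higher at 4 weeks and different between the weeks with 50 nM (16.2% of members), against 8.51% of all probe sets tested. Of these, 24 probe sets of 21 genes were off chromosome 19 (22.0% of 109) and 3 on it (5.17%). With 5 nM, 8 probe sets of 6 genes did the same (4.79%, against 1.18%). The opposite turn, up and then down, was seen with 50 nM in ZNF419 and ZNF217-AS1 (1.20% of members, against 3.83% of all tested) and with 5 nM in ZNF443. Each comparison had its own vehicle arrays, but the difference between weeks takes in both vehicle groups. With the 4w0 nM arrays as vehicle of both weeks, 5 of the 27 were still called lower at 1 week and 26 had the same sign. Of the 27, 2 had met the signal limit through 4-week rotenone arrays alone.

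The largest differences between weeks with 50 nM, on the log2 scale, were 3.13 for ZNF141, which met the signal limit on the 4-week rotenone arrays alone, and 2.56 for ZNF277. Next came ZNF467 with 2.52, ZNF184 with 2.48, ZNF322 with 2.36 and ZNF711 with 2.22. ZNF22 had 1.89 ± 0.15 (adjusted p = 2.86e-07). It read 1112, 1062 and 929 on the 4w50 nM arrays, against 492, 544 and 519 on the 4w0 nM arrays (0.99 ± 0.11), in place of the fall at 1 week. ZNF330 (209814_at) read 969, 905 and 752 on the 4w50 nM arrays, against 440.0, 446 and 411 on the 4w0 nM arrays (1.01 ± 0.13, adjusted p = 2.53e-05). Every 1w50 nM array of ZNF330 was thus below every vehicle array of its week and every 4w50 nM array above. The vehicle arrays of these 2 genes also differed between the weeks. In 4w0 nM against 1w0 nM, ZNF330 (209814_at) had -0.62 (adjusted p = 0.0148 in limma) and ZNF22 (218005_at) -0.59. The part of this shift in their turn was not tested. ZNF711 read 429, 326 and 343 on the 4w50 nM arrays, against 169, 189 and 179.8 on the 4w0 nM arrays, and ZNF322 read 185, 178 and 162, against 81.1, 101 and 91.8. Of the 3 probe sets of ZNF24, 203248_at passed with 5 nM at 4 weeks (0.91, adjusted p = 0.00163) and not with 50 nM (0.43, adjusted p = 0.078), while 212534_at was lower at 1 week (-0.57) and higher at 4 weeks (0.66) with 50 nM. As a median over the members of other chromosomes, relative to the mean of each over the 18 arrays, the 3 arrays of 1w50 nM stood at -0.24, -0.22 and -0.23 and those of 4w50 nM at 0.25, 0.18 and 0.16. The summed signal of 7 fibroblast markers, all 7 detected, also differed from the vehicle of each week in opposite directions at the 2 times. At 1 week it was between 5761 and 6347 in 1w50 nM, against 3819 to 4294 in 1w0 nM, and at 4 weeks between 4140 and 4592 in 4w50 nM, against 6047 to 6291 in 4w0 nM. The sums in 1w50 nM and in 1w5 nM (6174 to 6395) lay near those of 4w0 nM, and those of 1w0 nM lay below. The vehicle groups thus differed here too. The part of these markers in the ZNF values was not tested.

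**Figure D4:**
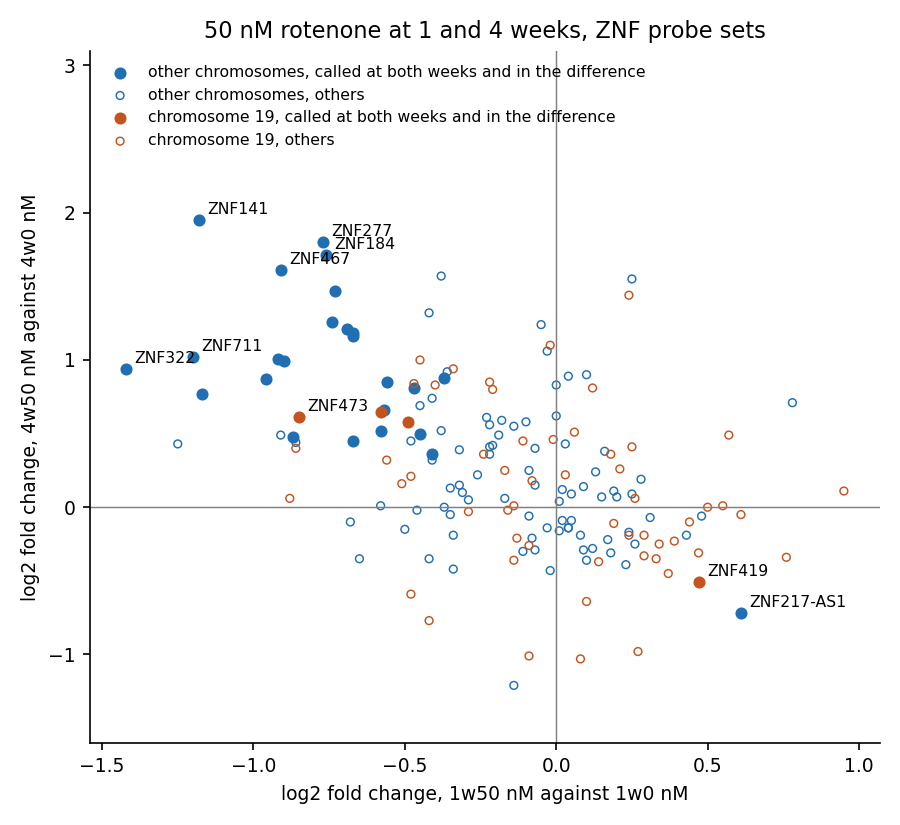
Log2 fold change of each ZNF probe set in 4w50 nM against 4w0 nM (y axis) and in 1w50 nM against 1w0 nM (x axis). Filled points were called at both weeks and in the difference between them: 27 lie in the upper left, 24 of them off chromosome 19, and ZNF419 and ZNF217-AS1 in the lower right.

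The members of chromosome 19 moved both ways at 4 weeks. With 5 nM, 13 of 58 were higher and 7 lower (22.4% and 12.1%, median -0.01), and with 50 nM, 17 were higher and 9 lower (29.3% and 15.5%, median 0.06). Among the other genes of the chromosome more fell than rose: of 797 probe sets, 22 were higher and 212 lower with 5 nM (2.76% and 26.6%), and 43 were higher and 290 lower with 50 nM (5.40% and 36.4%, median -0.30). ZNF83 (221645_s_at) rose most among the ZNF genes of the chromosome, with 222, 158 and 148 on the 4w50 nM arrays, against 52.0, 71.0 and 70.3 on the 4w0 nM arrays (1.44 ± 0.21, adjusted p = 5.86e-05). ZNF529 read 196, 159.6 and 128 on the 4w50 nM arrays, against 73.4, 76.5 and 72.1 on the 4w0 nM arrays (1.10), and the 4 arrays on which it met the signal limit were all 4w5 nM or 4w50 nM arrays. In both genes every treated array was above every vehicle array. ZNF112 rose by 1.12 with 5 nM and 1.00 with 50 nM, ZNF468 by 0.88 and 0.94, ZNF814 by 1.03 and 0.83 and ZNF175 by 0.94 and 0.84. ZNF813 (217665_at) fell with both doses. It read 61.0, 48.6 and 64.5 on the 4w50 nM arrays, against 117, 114 and 111 on the 4w0 nM arrays (-0.98 ± 0.15, adjusted p = 9.28e-05), and 62.4, 63.5 and 59.4 on the 4w5 nM arrays (-0.88). On chromosome 19 the count lower with 50 nM was 5 without replicate 1 or 3 of 4w50 nM or replicate 3 of 4w0 nM. With 5 nM it was 4 without replicate 2 of 4w5 nM, and 11 when replicate 3 of 1w0 nM left the fit.

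Runs of neighbours on chromosome 19 were counted apart. Split where RefSeq places more than 1 Mb between neighbouring zinc finger genes, the run from ZNF580 to ZNF324 held 22 probe sets, of which 4 were higher and 4 lower with 50 nM, and 3 higher and 5 lower with 5 nM, counts near those that the shares of all probe sets tested (22.9% and 18.1% with 50 nM) give for a run of this size. The run from ZNF175 to ZNF331 had 4 of 10 higher and 1 lower with 50 nM, and that from ZNF576 to ZNF180 had 3 of 9 higher and 3 lower. ZNF83 and ZNF813 stand in the same run and went opposite ways. Of the 5 members from ZNF14 to ZNF43, ZNF43 alone passed. Counted over the 96 members whose identifier ends in at alone, 42 were higher and 6 lower with 50 nM (43.8% and 6.25%), and of those on chromosome 19 30.0% were higher and 10.0% lower.

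**Figure D5:**
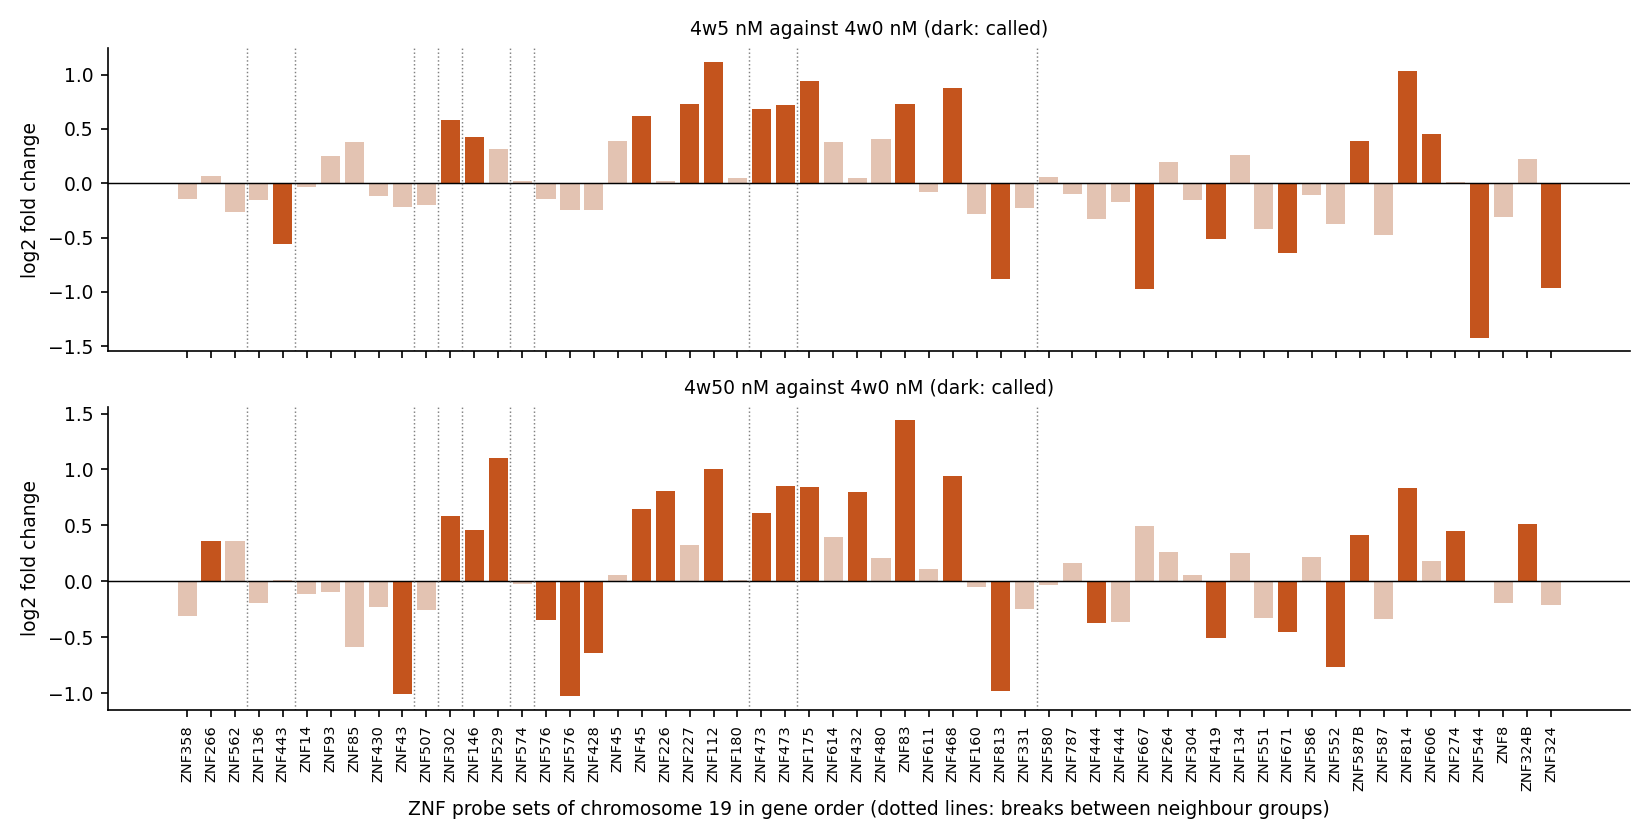
Log2 fold change (y axis) of the 58 ZNF probe sets of chromosome 19 in gene order (x axis), in 4w5 nM (upper panel) and 4w50 nM (lower panel) against 4w0 nM, with dark bars called at an adjusted p below 0.05 and dotted lines at breaks between runs of neighbours. Dark bars of both signs stand in the run from ZNF580 to ZNF324, 3 up and 5 down with 5 nM and 4 up and 4 down with 50 nM.

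The 2 doses differed at 4 weeks. In 4w50 nM against 4w5 nM, 27 members were higher and 5 lower, beside 9.53% and 7.07% of all probe sets tested. On chromosome 19, 10 were higher and 1 lower, and elsewhere 17 were higher and 4 lower. Of the 27, 4 had met the signal limit through 4-week rotenone arrays alone, 3 of them on chromosome 19. Without such members 23 of 157 were higher (14.65%), and 7 of 55 on chromosome 19 (12.7%). ZNF544 (218735_s_at), a KRAB gene of chromosome 19, was low with the smaller dose alone. It read 318, 247 and 299.5 on the 4w50 nM arrays, against 136, 94.7 and 96.0 on the 4w5 nM arrays (1.42, adjusted p = 0.000468), and 288, 297 and 275 on the 4w0 nM arrays. Against that vehicle the 5 nM value was -1.42 ± 0.20 (adjusted p = 8.12e-05) and the 50 nM value 0.00 (adjusted p = 0.996). ZNF324 (-0.96 with 5 nM, -0.21 with 50 nM) and ZNF667 (-0.97 and 0.49) had the same form, with differences between the doses of 0.76 (adjusted p = 0.00416) and 1.46 (adjusted p = 0.00674), although the fall of ZNF667 with 5 nM was lost under 6 alternatives. ZNF43 (206695_x_at), also a KRAB gene, had the opposite form, with 132, 146 and 148 on the 4w50 nM arrays, against 266, 240.3 and 228 on the 4w5 nM arrays (-0.79, adjusted p = 0.0068). Its fall against 4w0 nM, where the arrays read 255, 267 and 338, was -1.01 ± 0.18 (adjusted p = 0.000323). On chromosome 6, 6 of 9 probe sets (6 genes) were higher with the larger dose, beside 9.53% of all probe sets tested. ZNF467 (1.23), ZNF451 (0.85), ZNF226 (0.79), ZNF239 (0.79) and ZNF277 (0.78) were higher with the larger dose. ZNF532 (-0.78), ZNF271P (-0.66) and ZNF706 (-0.57) were lower. ZNF226 was admitted by 4-week rotenone arrays alone. The call of ZNF271P was lost under 13 alternatives, of ZNF239 under 6, of ZNF277 under 5 and of ZNF532 under 4. Those of ZNF226 and ZNF467 were lost under 3 each. The count of 27 was 9 without 4w50 nM replicate 1, 14 without 4w50 nM replicate 2, 12 without 4w5 nM replicate 2 and 16 without replicate 1 of 4w5 nM. The count of 5 was 3 without replicate 1 or 2 of 4w50 nM or replicate 2 of 4w5 nM. It was 15 and 8 when replicates 3 and 2 of 1w0 nM, which enter this comparison through the shared spread only, were left out.

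Falls off chromosome 19 at 4 weeks were few. ZNF174 (210291_s_at, chromosome 16) had 74.7, 94.8 and 47.8 on the 4w50 nM arrays, against 132.7, 198 and 159 on the 4w0 nM arrays, all treated arrays lying lower (-1.21 ± 0.22, adjusted p = 0.000333), and -0.93 with 5 nM. ZNF706 (chromosome 8) read 1004, 1145 and 942 on the 4w50 nM arrays, against 1403, 1411 and 1325 on the 4w0 nM arrays (-0.43, adjusted p = 0.0116). ZNF721 fell with 5 nM (-0.66), a call lost under 4 alternatives. Of the rises, ZNF267 (1.46 with 5 nM, 1.57 with 50 nM, admitted by 4-week rotenone arrays alone), ZNF512B (1.22 and 1.55) and ZNF239 (1.47 with 50 nM) were also among the largest. The second probe set of ZNF512B gave 0.67 and 1.06, both called. By chromosome, 8 of the 9 probe sets (6 genes) of chromosome 6 rose with 50 nM (median 0.62). All 5 probe sets (4 genes) of chromosome 10 rose with 5 nM and 4 of them with 50 nM. Both counts include ZNF518A, admitted by 4-week rotenone arrays alone, so that the rule favoured its rise. On chromosome 4, 3 of the 4 probe sets (3 genes) rose with each dose, namely both of ZNF330 and that of ZNF141, admitted by 4-week rotenone arrays alone. Of all probe sets tested, 18.3% rose with 5 nM and 22.9% with 50 nM. Differences between these chromosomes were not tested. The lower counts were the less stable: they were 8 of 167 with 5 nM without 4w0 nM replicate 3 or 4w5 nM replicate 2, 9 without 4w0 nM replicate 2 or 4w5 nM replicate 1, and 8 with 50 nM without 4w50 nM replicate 3.

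For 26 genes more than 1 probe set was a member. None of them had calls in opposite directions in a comparison of a dose with its vehicle. In 4w50 nM against 4w0 nM, 8 of the 26 had some probe sets called and others not, and in 1w50 nM against 1w0 nM 7 did. The widest gaps in 4w50 nM against 4w0 nM were in ZNF576 (-1.03 and -0.35), ZNF292 (between 0.55 and 1.18) and ZNF24 (between 0.05 and 0.66 over 3 probe sets). These gaps limit what a single probe set says of its gene.

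KRAB zinc finger proteins work with a set of corepressors. Of 23 tested genes for TRIM28, its partners and the HUSH complex, 5 rose and 4 fell with each dose at 4 weeks (21.7% and 17.4%), close to the shares of all probe sets tested (18.3% and 14.1% with 5 nM, 22.9% and 18.1% with 50 nM), and 2 rose and 1 fell in 1w50 nM. TRIM28 itself was slightly lower, at 1962 ± 118 (SD, n = 3) on the 4w50 nM arrays, against 2518 ± 36.6 on the 4w0 nM arrays (-0.36, adjusted p = 0.0204 in limma). SETDB1 did not pass (-0.31 with 5 nM, 0.26 with 50 nM). TASOR, a core subunit of HUSH, which silences transposable elements, was at 784 ± 118 (SD, n = 3) on the 4w50 nM arrays, against 249 ± 6.12 on the 4w0 nM arrays (1.64, adjusted p = 1.2e-05 in limma), and its 5 nM value of 0.47 did not pass. ATRX, a chromatin remodeller of silenced repeats, had -0.65 in 1w50 nM and rose by 0.82 with 5 nM and 1.13 with 50 nM at 4 weeks. SUV39H1, another histone methyltransferase, rose by 0.67 and 0.62 at 1 week and fell by 0.62 and 0.64 at 4 weeks with 5 nM and 50 nM.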

How the data were processed

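Total RNA of 18 SK-N-MC samples was hybridized to Affymetrix GeneChip human arrays. As deposited, the intensity values are linear MBEI signals, which the authors normalized and modelled in dCHIP, between 0.46 and 11258.4. The number of arrays limits the precision. A floor of 16 was applied before log2. The 13705 probe sets tested had 1 gene symbol and reached 50 on 3 or more arrays, and 8 ZNF probe sets with several symbols were left out. In R 4.3.3, limma 3.58.1 fitted 6 group means to all 18 arrays with an intensity trend (12 residual and 5.68 prior degrees of freedom), with Benjamini-Hochberg adjustment over each comparison. Each fold change puts the dose over its vehicle, or the later or larger group over the other, with its SE. The test was tested on simulated data.

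The members and gene lists were chosen with earlier results of these data known. The genes named are the largest non-overlapping rises (4) and falls (3) of each comparison on and off chromosome 19, the strongest signals, those at the limit of the rule, those with discordant probe sets and those with a well-described role; the genes of the promoter and week paragraphs were chosen among them after their values were seen. Alternatives were a floor of 32, a started log, quantile normalization, median scaling, no filter, a limit of 100 for all, members on at least 9 arrays, 1 probe set per gene, only the arrays compared, no trend, array weights, a replicate block, the methods' t-test and leaving out each array. Members ending in at alone, the 4w0 nM arrays as vehicle of 1 week and the members without those admitted by 4-week rotenone arrays alone were added after seeing the data. Protein sequences were not used here.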

Additional observations from a re-analysis of the deposited data

Results flagged for a closer look

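For 12 probe sets with 50 nM and 5 with 5 nM, among the genes named, the effect at 4 weeks and the effect at 1 week differed in the limma test of the difference itself, with calls in opposite directions at the 2 times. With 50 nM the effect at 4 weeks minus that at 1 week was 3.13 for ZNF141, 2.56 for ZNF277, 2.52 for ZNF467, 2.48 for ZNF184, 2.36 for ZNF322, 2.22 for ZNF711, 2.20 for ZNF239, 1.94 for ZNF330 (213760_s_at), 1.90 for ZNF451 and 1.46 for ZNF473, all on the log2 scale and all lower first and higher later. ZNF141 met the signal limit on 4-week rotenone arrays alone, so the rule favoured its late rise and its test carries no weight. ZNF217-AS1 (-1.34) and ZNF419 (-0.98) were higher first and lower later. With 5 nM the difference between weeks was 1.67 for ZNF24 (203248_at), 1.37 for ZNF711, 1.34 for ZNF322, 1.28 for ZNF330 (213760_s_at) and -1.45 for ZNF443. The other probe sets of ZNF24 had 1.1 (212534_at, called) and 0.31 (203247_s_at, not called). With 50 nM the second probe set of ZNF451 (215012_at) had a difference of 0.61, called, but no fall at 1 week (0.00). That of ZNF473 (213130_at) had 1.07, called, with -0.22 at 1 week, not called.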

How the results depend on the processing

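Of the 60 changes named by the rule, 36 passed under each of 11 other settings, the methods' t-test apart, and the 18 fits that left out an array, 24 lost the call under at least 1, and 0 turned sign. At its own threshold (p below 0.05 and more than 2-fold) that t-test did not call 38 of the 60, and 1 probe set per gene covered 54 of them. With the 4w0 nM arrays as vehicle, 4 of 20 named 1-week changes kept the call, and ZNF443 in 1w50 nM turned to -0.27 (adjusted p = 0.346 in limma). The causes of the shifts below were not tested. Counts of members are given as higher and lower. With the 4w0 nM vehicle they were 0 and 0 in 1w5 nM and 0 and 9 in 1w50 nM. The methods' t-test at p below 0.05 with a fold above 2 gave 1 and 0 in 1w5 nM, 0 and 5 in 1w50 nM, 11 and 1 in 4w5 nM, 19 and 2 in 4w50 nM, 2 and 0 in 4w50 nM against 4w5 nM, and 0 and 0 between vehicles. After Benjamini-Hochberg adjustment it gave 0 and 0 in 1w5 nM, 1w50 nM and between vehicles, 7 lower in 4w5 nM, and 0 and 3 between the doses at 4 weeks. Only the arrays compared gave 0 and 0 in 1w5 nM and between vehicles, 2 and 7 in 1w50 nM, and 16 higher between the doses at 4 weeks. Array weights gave 1 and 1 in 1w5 nM, 4 higher in 1w50 nM, 32 lower in 4w5 nM, 29 lower in 4w50 nM, 44 and 21 between the doses at 4 weeks, 2 and 51 at 1 week, and 0 and 0 between vehicles. Without a filter there were 3 higher in 1w5 nM, 3 lower between the doses at 4 weeks and 2 lower between vehicles, and 1 probe set per gene gave 5 lower in 1w5 nM.

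Scaling moved the split in 1w5 nM from 7 and 8 to 7 and 13 (quantile) and 5 and 13 (median scaling), between vehicles from 2 and 4 to 1 and 9 under both, and in the 50 nM difference between weeks from 65 and 17 to 63 and 29 (quantile). Off chromosome 19, quantile normalization gave 11 and 6 between the doses at 4 weeks. At 4 weeks the counts were 48 and 19 (5 nM) and 57 and 18 (50 nM) with quantile normalization, and 55 and 12 and 70 and 11 with median scaling. The replicate block gave 4 higher in 1w5 nM and 1 higher between vehicles and moved no other count by over 1.5 times. Of 45 same-numbered pairs of arrays, 11 had deviations that correlated over 0.1 (-0.503 to 0.357), so the numbers were not taken to pair the samples.

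Leaving out 1 array at a time gave 2 to 8 higher and 1 to 16 lower in 1w5 nM, 4 to 16 and 22 to 54 in 1w50 nM, 38 to 56 and 8 to 19 in 4w5 nM, and 53 to 72 and 8 to 16 in 4w50 nM. It gave 9 to 27 and 3 to 15 between the doses at 4 weeks, 0 to 0 and 0 to 13 at 1 week, 1 to 3 and 1 to 14 between vehicles, 34 to 55 and 15 to 23 in the difference between weeks with 5 nM, and 58 to 80 and 14 to 22 with 50 nM. The highest counts at 1 week, 13 between its doses and 14 between vehicles came without 1w0 nM replicate 3. Members near the limit of 100 have the least signal over background.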
